A study of Mus musculus with 4 samples.

Results

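Long noncoding RNA (lncRNA) genes were followed through the liver transcripts of 4 mouse libraries, as pieces of transcript that were assembled separately in each library. A piece, called a locus here, counted when it was 300 bases or longer, overlapped an exon of a GENCODE M21 gene of 1 of 6 lncRNA types, and touched no exon of a protein-coding gene. Of 154206 loci in all, 3588 did so, over 1109 lncRNA genes. The 692 genes seen in at least 2 libraries, with 3110 loci or 2.02% of all loci, are described here, and the 417 genes seen in a single library are not. They comprised 308 lincRNA genes, 196 antisense genes, 133 processed transcripts, 41 lncRNAs at bidirectional promoters and 14 sense intronic genes, out of 10122 genes of these types in the annotation. No gene of the type macro_lncRNA was among them.

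All animals were male C57BL/6 mice fed AIN-93G chow low in iron (2.5 mg per kg), given from 5 weeks of age for 50 days, and livers were taken at 12 weeks. The wild type group has 2 libraries. The knockout group has 2 libraries from mice homozygous for a disrupted hemojuvelin gene (HJV knockout, gene symbol Hjv) on a C57BL/6 background. The wild type mice were bought from a breeder and the knockout mice came from another laboratory's line, so genotype and colony cannot be told apart. Hemojuvelin is a membrane co-receptor through which hepatocytes adjust hepcidin to iron. Nothing in the labels ties each library to an animal of its own, so every p-value here measures the spread between these libraries, which may be technical. Both genotypes had the diet, so the comparison is one of genotype on low iron and not of diet.

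Long noncoding RNAs are transcripts without a long open reading frame. Some act as structural RNAs in the nucleus, as Neat1 does in paraspeckles; some mainly carry small nucleolar RNAs (snoRNAs) or microRNAs within them; others are transcribed across from a coding gene or from the same promoter as one. Most are made at low levels and are retained in the nucleus, and the function of most genes with RIKEN or Gm names is not known.

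Sequences are shown first for the genes on which the results below turn. AC121973.1 had the largest difference between genotypes that both knockout libraries shared, and RefSeq gives no entry under that symbol. The gene lies at chr19:23061454-23064032 on the plus strand of GRCm38, and the first 150 bases of its 1282-base transcript AC121973.1-201 in GENCODE M21 are given, with no capitals.
AC121973.1-201: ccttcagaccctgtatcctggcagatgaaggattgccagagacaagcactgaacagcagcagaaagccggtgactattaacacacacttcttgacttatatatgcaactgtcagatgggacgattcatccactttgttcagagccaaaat
Meg3 and Rian are imprinted genes seen in the knockout libraries alone, and 1810058I24Rik, 9030616G12Rik and 5033403H07Rik are members with a 2-fold difference. Their RefSeq promoters on GRCm38.p6 run from 250 bases before to 50 bases after the start, 5′ to 3′ on the strand of the gene. Capitals mark TATAAA (the TATA box), GGGCGG (a GC box), CCAAT and CACGTG (an E-box) on either strand, and matches that overlap are joined into 1 run.
Meg3 (chr12:109540746-109541045, plus strand): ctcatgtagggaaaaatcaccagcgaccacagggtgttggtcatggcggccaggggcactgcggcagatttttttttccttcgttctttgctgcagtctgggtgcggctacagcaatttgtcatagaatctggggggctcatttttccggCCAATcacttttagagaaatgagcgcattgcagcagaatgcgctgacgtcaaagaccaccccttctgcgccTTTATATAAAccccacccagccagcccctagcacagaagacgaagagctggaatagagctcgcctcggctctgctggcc
Rian (chr12:109603695-109603994, plus strand): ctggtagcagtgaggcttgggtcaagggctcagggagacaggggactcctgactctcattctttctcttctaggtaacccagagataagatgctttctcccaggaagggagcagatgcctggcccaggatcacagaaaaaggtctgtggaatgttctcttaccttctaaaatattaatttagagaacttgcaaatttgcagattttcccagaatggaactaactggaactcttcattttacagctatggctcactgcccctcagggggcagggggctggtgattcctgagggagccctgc
1810058I24Rik (chr6:35252460-35252759, plus strand): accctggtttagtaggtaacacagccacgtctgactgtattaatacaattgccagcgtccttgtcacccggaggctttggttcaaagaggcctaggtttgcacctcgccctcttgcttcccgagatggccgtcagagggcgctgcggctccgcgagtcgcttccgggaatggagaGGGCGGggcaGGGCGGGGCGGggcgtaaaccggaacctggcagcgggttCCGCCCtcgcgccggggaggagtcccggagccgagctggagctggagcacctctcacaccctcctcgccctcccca
9030616G12Rik (chr10:128970947-128971246, plus strand): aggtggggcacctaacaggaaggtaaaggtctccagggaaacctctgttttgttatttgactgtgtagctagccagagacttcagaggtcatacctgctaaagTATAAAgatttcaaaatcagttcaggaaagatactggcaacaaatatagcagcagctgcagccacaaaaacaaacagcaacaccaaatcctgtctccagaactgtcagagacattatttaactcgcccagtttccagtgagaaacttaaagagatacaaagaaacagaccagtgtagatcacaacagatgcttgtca
5033403H07Rik (chr5:52992243-52992542, minus strand): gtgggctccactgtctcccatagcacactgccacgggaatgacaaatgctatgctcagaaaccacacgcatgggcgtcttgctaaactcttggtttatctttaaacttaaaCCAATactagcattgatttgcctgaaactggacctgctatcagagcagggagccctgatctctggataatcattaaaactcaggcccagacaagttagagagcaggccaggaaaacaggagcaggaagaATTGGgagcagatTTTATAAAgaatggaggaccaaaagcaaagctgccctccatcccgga

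The promoter of 1810058I24Rik held 4 matches to GGGCGG and no TATAAA, and 65% of its bases were G or C. Those of Meg3 and 5033403H07Rik each held 2 matches to TATAAA, which overlap because both strands are read, and that of 9030616G12Rik held 1. The Rian promoter held none of the 4 motifs. Of the 692 members, 388 had a RefSeq promoter. Among these, 45.6% held GGGCGG and 12.6% held TATAAA on either strand. The shares were 66.1% and 6.98% for the promoters of 6401 tested coding genes, and 35.7% and 13.6% for all 32851 promoters of the RefSeq table. CCAAT stood in 40.2% of the member promoters, 38.4% of the coding ones and 37.4% of all. CACGTG stood in 12.1%, 11.0% and 7.15%. A match is a description of these letters and does not show that a factor binds there.

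Several members host microRNAs, and these are shown for 3 of them with the seed, bases 2 to 8, in capitals. Mature sequences are from RefSeq on GRCm38.p6. Dleu2 carries miR-15a and miR-16, which share the seed AGCAGCA, at chr14:61632075-61632096 and chr14:61631936-61631957 on the minus strand. Meg3 carries miR-770-5p at chr12:109563710-109563731, and Rian carries miR-370-3p at chr12:109618305-109618326, both on the plus strand.
miR-15a-5p: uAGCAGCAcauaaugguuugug
miR-16-5p: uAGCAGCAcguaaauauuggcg
miR-770-5p: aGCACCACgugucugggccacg
miR-370-3p: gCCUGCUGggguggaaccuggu

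By position, 267 of the 692 genes overlapped the body of a coding gene on the other strand, and 33 overlapped one on the same strand. Another 117 began within 5 kb upstream of a coding gene on the other strand, the arrangement of a divergent promoter, and 30 lay within 5 kb past a coding 3′ end on the same strand. The remaining genes included 206 farther than 5 kb from any coding gene. Inside member genes lay 274 annotated snoRNAs in 26 hosts and 40 microRNAs in 23 hosts. The noncoding label was checked against RefSeq, which called 460 of the members lncRNA, had no entry under the symbol for 211, and called 17 protein-coding. Those 17 include 1810058I24Rik, Cct6a and Tmem250-ps among the genes described below. Of all members, 27 had a locus over a pseudogene.

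Levels are in FPKM, which counts fragments per length of transcript and per size of library, divided by a factor that evens out the 4 libraries (scaled FPKM). Hjv itself had 9.23 and 29.6 scaled FPKM in wild type 1 and 2, no usable locus in knockout 1 and 0.238 in knockout 2 and thus went with the labels. Over all loci the libraries held 41541 and 26238 (wild type) and 56237 and 30190 (knockout), and loci of 150 to 250 bases made up 38.5% of knockout 1 and 4.48% to 21.3% of the others. The files hold no read totals, and depth was not recovered here. The lowest FPKM of a member locus, which falls as depth rises, was 0.219, 0.290, 0.672 and 0.0987 in wild type 1 and 2 and knockout 1 and 2. Albumin had no locus in any library, so a missing locus is no measure of zero expression. Of 6 hepatocyte markers, 5 had a value in every library, with summed levels of 7819 to 8393 scaled FPKM in wild type and 9991 to 10106 in knockout. Apoa1 was above wild type in both knockout libraries, whereas Ttr, Cps1, Hnf4a and Apob overlapped. Summed Kupffer cell markers were 106 to 129 in wild type and 78.1 to 110 in knockout. Among them Clec4f (31.8 and 37.9 against 22.2 and 30.6), Adgre1 and Vsig4 were below wild type in both knockout libraries. Cd5l and C1qa overlapped, and Marco had no value in knockout 1. Of 4 erythroid markers, 1 had a value in wild type 1, 2 in knockout 1 and none in the other libraries. Summed cholangiocyte markers were 24.4 to 34.7 in wild type and 15.1 to 26.0 in knockout, and lymphocyte markers 2.67 to 3.54 over the 4 libraries. Summed stellate cell markers were 106 and 88.0 in wild type 1 and 2 but 117 and 125 in knockout 1 and 2, so that both knockout values were above. The 2 markers Dcn (70.6 and 57.7 against 72.7 and 60.7) and Ecm1 (17.4 and 14.7 against 15.7 and 37.8) overlapped between genotypes. Lrat, Reln, Des and Colec11 were above wild type in both knockout libraries. Summed endothelial markers were 61.1 to 77.9 in wild type and 75 to 80.6 in knockout. The part of these markers in the lncRNA results was not tested, and in bulk liver fewer cells of a type and less RNA per cell cannot be told apart.

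The 2 knockout libraries stood apart from each other in the lncRNA genes, in opposite directions. Of the 692 genes, 567 and 476 had a usable value in wild type 1 and 2, and 437 and 558 in knockout 1 and 2. In knockout 1, 78 genes had only loci under 300 bases, against 21, 21 and 3 in wild type 1, wild type 2 and knockout 2. In knockout 2, 82 genes lay within a locus that also covered a coding exon, the most of any library, and only 42 had no locus at all, against 72, 130 and 100 in wild type 1, wild type 2 and knockout 1. The median length of a member locus was 742, 827, 561 and 1098 bases in the same order of libraries. The part of these differences between libraries in the comparisons was not tested.

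**Figure D1:**
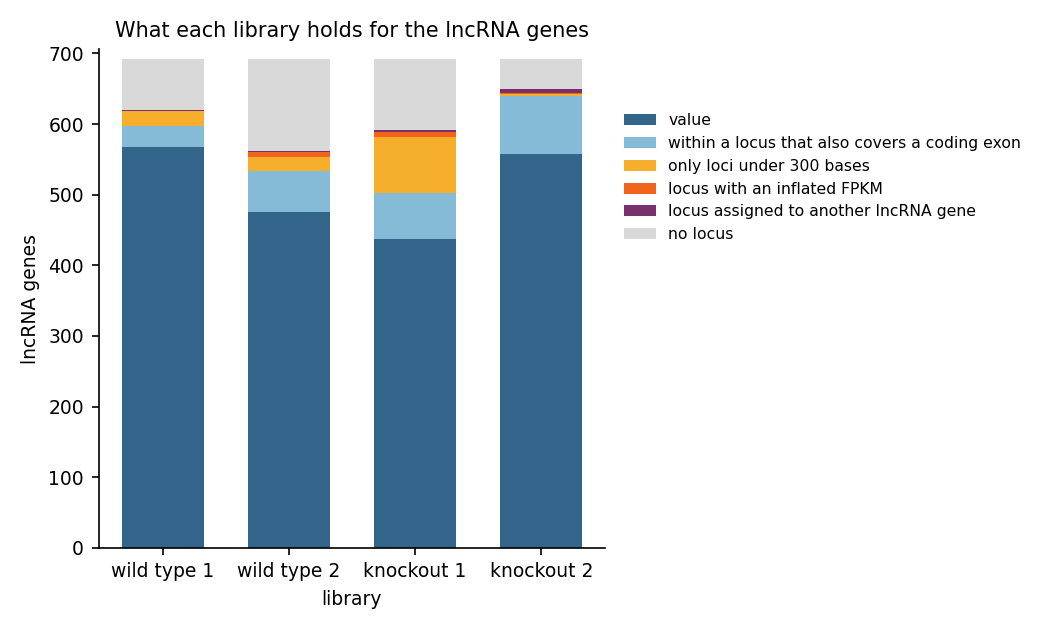
Number of the 692 lncRNA genes (vertical axis) in each state in each of the 4 libraries (horizontal axis). A usable value was present for 567, 476, 437 and 558 genes, short loci alone were most frequent in knockout 1 (78 genes), and genes absorbed into a locus with a coding exon were most frequent in knockout 2 (82 genes).

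The levels showed the same opposition. Among 243 lncRNA genes with a value in all 4 libraries, the median gene lay 0.53 above its own 4-library mean on the log2 scale in knockout 1 and 0.45 below it in knockout 2. The medians in wild type 1 and 2 were -0.11 and 0.00. Knockout 1 held the highest value of the 4 for 141 of the 243 genes, and knockout 2 held the lowest for 134. Among 1962 coding genes of the same level (between the quartiles of the lncRNA genes) the medians were -0.10, -0.11, 0.23 and -0.02, so that knockout 1 was high there too, by less, and knockout 2 was not low. All 5 lncRNA types with values had a positive median in knockout 1 (0.20 to 0.55) and a negative one in knockout 2 (-0.80 to -0.12), with antisense genes the lowest. The SD of the log2 ratio between the libraries of a pair was 0.79 for wild type and 1.38 for knockout over the lncRNA genes. For the coding genes of the same level it was 0.49 and 0.82.

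**Figure D2:**
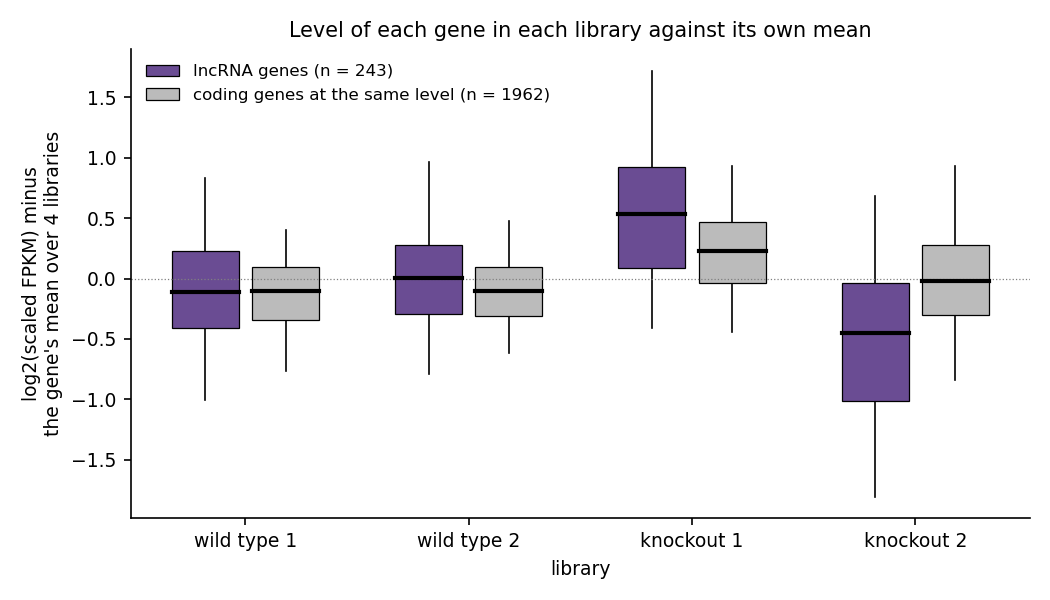
Log2 scaled FPKM of each gene in a library minus its mean over the 4 libraries, for 243 lncRNA genes and 1962 coding genes of the same level. Boxes span the quartiles, bars mark the median and lines run from the lowest to the highest 5%; the lncRNA median is 0.53 in knockout 1 and -0.45 in knockout 2.

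Of the 692 members, 685 had a usable value in at least 2 libraries, 243 in all 4, and 221 also reached 1 scaled FPKM in at least 2 libraries and were tested. These were tested together with 7928 coding genes by limma on log2(scaled FPKM + 1), so that fold changes of low genes are understated. No lncRNA gene passed an adjusted p of 0.05 (limma, Benjamini-Hochberg over 8149 genes), higher or lower, and the share of all genes tested that passed was 0% in each direction. The smallest adjusted p, that of AC121973.1, was 0.119. Without adjustment, p was under 0.05 for 13 lncRNA genes higher in knockout (5.88%, against 5.58% of all genes tested) and 11 lower ones (4.98%, against 5.26%). The shares of lncRNA genes were thus near those of all genes. The smallest p that an exact permutation test of 1 gene allows in groups of 2 is 0.333.

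Both knockout values lay above both wild type values for 40 lncRNA genes, or 18.1%, against 21.9% of all genes tested. They lay below for 32, or 14.5%, against 23.6%. The other 149 overlapped. The median log2 difference, knockout minus wild type throughout, was 0.09 over the 221 lncRNA genes and 0.02 over all genes tested. By type, the tested antisense genes held 1 gene above and 9 below of 34, with a median of -0.16, and the lincRNA genes held 27 above and 16 below of 127, with a median of 0.14. The processed transcripts held 10 above and 4 below of 45. No test was made of the difference between types. Taken 1 knockout library at a time, the median over the 243 genes was 0.55 for knockout 1 and -0.50 for knockout 2 against the wild type mean, so the small median of the pair averages opposite shifts.

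A 2-fold difference without overlap, at least 1 on the log2(scaled FPKM + 1) scale, was found for 5 lncRNA genes in each direction, 2.26% of those tested, against 2.56% of all genes tested on the higher side and 1.45% on the lower side. On the higher side AC121973.1, a lincRNA gene of unknown function, had 1.91 and 1.52 scaled FPKM in wild type, against 20.6 and 22.5 in knockout. Both knockout libraries were far above both wild type libraries and within a narrow range of each other. The log2 difference was 3.06 (SE 0.19), with an unadjusted p of 2.4e-05 and an adjusted p of 0.119 in limma. The knockout loci do not belong to AC121973.1 alone. C330002G04Rik, a lincRNA gene on the minus strand at chr19:22978230-23075924, has exons inside it, and the files give no strand. In knockout 2 the locus ran from 23051558 to 23075761, and its ends fell in exons of C330002G04Rik at 23051550 to 23051705 and 23075757 to 23075853. In knockout 1 it ran from 23061448 to 23064371, past the end of AC121973.1, and its end also fell in an exon of C330002G04Rik, at 23064357 to 23064443. The reads therefore cannot be divided between these genes here.

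Gm15675, a lincRNA gene at chr1:130429781-130437191, 1836 bases past the 3′ end of Cd55 on the same strand, had 0.873 and 0.458 scaled FPKM in wild type, against 7.38 and 3.25 in knockout. Each knockout value was above both wild type values, with a log2 difference of 1.85 (SE 0.39, adjusted p 0.420 in limma). Both wild type values were under the filter of 1 scaled FPKM, so the gene was tested only through the knockout group in which it is high, and its test supports nothing. This held for 5 of the 221 genes through knockout and for 1 through wild type. In all 4 libraries a locus of the gene also covered exons of Gm15674, on the other strand. Cd55, which encodes a regulator of complement on cell surfaces, had 6.39 and 7.59 in wild type, against 5.65 and 5.23 in knockout, and thus did not lie above wild type.

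1810058I24Rik, at chr6:35252654-35263496, is typed lincRNA by GENCODE M21 and protein-coding by RefSeq. It had 23.6 and 20.7 scaled FPKM in wild type, against 57.5 and 39.3 in knockout. These gene values did not overlap, and the log2 difference was 1.07 (SE 0.25, unadjusted p 0.00847, adjusted p 0.420 in limma). In wild type 1 the value averaged a locus at 35252698 to 35261924, at a deposited 43.2 FPKM, with one at 35262123 to 35263486, at 3.92. The knockout loci ended at 35261767 and 35261515, before that second locus, at a deposited 69.2 and 37.3. On the first locus alone wild type 1 was thus above knockout 2, and the groups overlapped. 1810058I24Rik was the one member on the higher side with more than 20 scaled FPKM in every library.

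1810012K08Rik had 0.703 and 0.635 scaled FPKM in wild type, against 2.12 and 6.57 in knockout, a log2 difference of 1.54 (SE 0.46, adjusted p 0.438 in limma). It too was under the filter in wild type and tested only through knockout, so the test supports nothing. In knockout 1 the value came from 4.18% of the transcript, against 43.2% to 99.8% in the other libraries. It overlaps Tmem250-ps on the other strand, whose own levels overlapped between genotypes (24.8 and 26.0 in wild type, 25.6 and 30.1 in knockout). Gm26917, at chr17:39843013-39846341, met the rule through 1 library. It had 1.74 and 1.44 in wild type, 1.95 in knockout 1 and 758.5 in knockout 2. In knockout 2 the assembled locus ran from 39842999 to 39848831 and so took in the ribosomal RNA repeat that RefSeq places at 39846354 to 39848202 (Rn18s-rs5). The other 3 libraries had a separate locus over that repeat, at deposited FPKM of 650, 583 and 1666 (wild type 1, wild type 2, knockout 1). The value of Gm26917 in knockout 2 is thus one of a merged locus.

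On the lower side all 5 genes were lowest in knockout 2 and next lowest in knockout 1. 5033403H07Rik, a processed transcript at chr5:52973012-52994436, had 7.01 and 11.7 scaled FPKM in wild type, against 3.96 and 0.746 in knockout, a log2 difference of -1.78 (SE 0.56, adjusted p 0.440 in limma). The stretches behind these values were unlike. They were loci of 441 and 599 bases in wild type 1 and 1 locus of 373 in wild type 2. In knockout 1 they were loci of 786 and 586 bases, and in knockout 2 of 3313, 5461 and 1003. The locus of 5461 bases also covered exons of Gm30301, on the other strand. 9030616G12Rik, a lincRNA gene at chr10:128971197-128978115, had 6.60 and 5.20 in wild type, against 3.25 and 0.805 in knockout, a log2 difference of -1.31 (SE 0.45, adjusted p 0.453 in limma). It was assembled as a single locus of 8408 to 8630 bases in every library, so that the same stretch was measured each time.

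Gm12718 had 8.14 and 6.46 scaled FPKM in wild type, against 4.41 and 0.996 in knockout. Its locus was 86787 and 109891 bases long in wild type, 647 in knockout 1 and 114135 in knockout 2, so the stretches were unlike. AC102159.1 had 5.35 and 8.16 in wild type, against 4.31 and 1.70 in knockout. In knockout 1 its 5′ locus, of 249 bases, was under the length limit, while wild type had a deposited 8.99 and 9.29 FPKM there. The 3′ locus, present in every library, had a deposited 4.36 and 6.74 in wild type, against 6.24 and 1.39 in knockout. On that locus alone the groups overlapped. Gm26588, at chr6:88716422-88725860, overlaps part of Mgll, a gene for a lipase of monoacylglycerols, on the other strand. Gm26588 had 2.96 and 7.88 in wild type, against 2.21 and 1.60 in knockout. In each library its loci without a coding exon ended before the long locus over Mgll began, at 88724413 to 88725102. Mgll had 43.7 and 44.2 in wild type, against 42.8 and 51.7 in knockout (log2 difference 0.09, SE 0.19). The order of the knockout libraries in these 5 genes, knockout 2 below knockout 1, was also that of the median lncRNA gene.

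**Figure D3:**
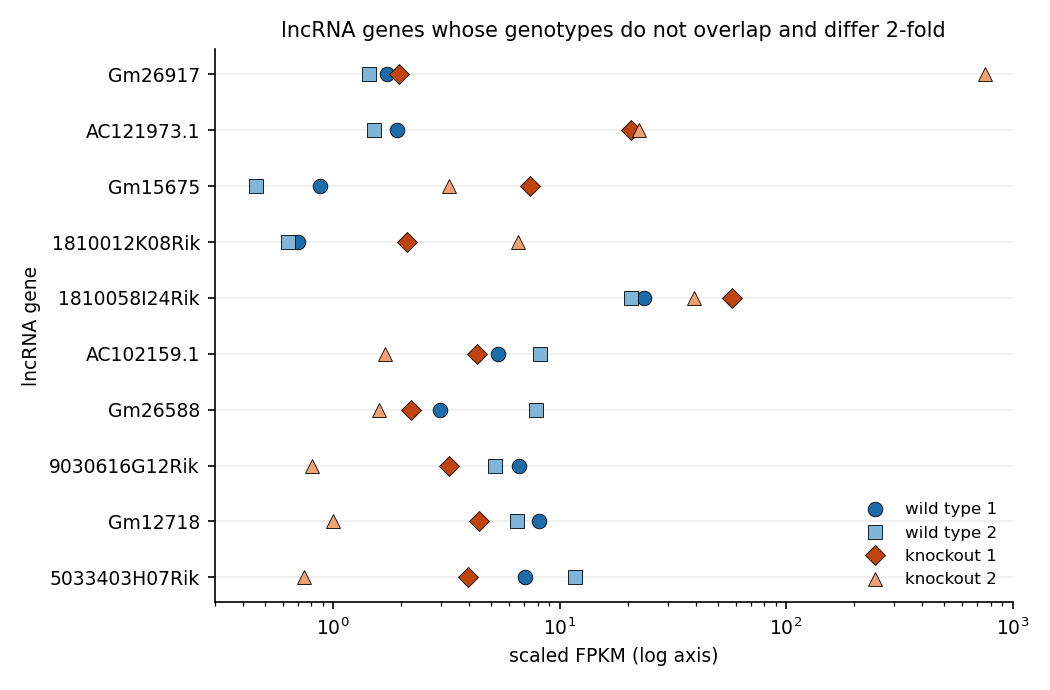
Scaled FPKM (log axis) in each library for the 10 lncRNA genes whose genotypes do not overlap and differ 2-fold, ordered by log2 difference. AC121973.1 has knockout values of 20.6 and 22.5 against 1.91 and 1.52, Gm26917 is high in knockout 2 only, and the 5 lower genes are lowest in knockout 2.

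The calls depended on the knockout libraries. With knockout 1 left out, limma called 7 lncRNA genes higher and 4 lower at an adjusted p of 0.05, and with knockout 2 left out it called 3 higher and 0 lower, where the lone knockout library was assumed to vary as the wild type pair does. Without knockout 1 these were 3.17% higher and 1.81% lower, against 4.22% and 1.46% of all genes tested, so the lncRNA shares were near the background. Without knockout 2 they were 1.36% higher, against 0.184% of all genes tested, and none lower, against 0.0245%. With FPKM as deposited 0.463% of the lncRNA genes were called higher, the 1 gene AC121973.1, against 0.0246% of all genes, and with absent genes set to 0 the shares were 1.06% and 0.132%. AC121973.1 was the one lncRNA gene called whichever knockout library was left out, with log2 differences of 3.11 without knockout 1 and 3.00 without knockout 2. It was not called when either wild type library was left out. The other calls without knockout 2, 2210408F21Rik (5.43) and D130020L05Rik (3.00), and the 4 lower calls without knockout 1, which were Gm12718 (-2.05), 9030616G12Rik (-1.93), 5033403H07Rik (-2.53) and Gm15638 (-1.22), each rested on 1 knockout library. Their log2 differences are given in parentheses. These genes were picked after their values were seen. With loci over several lncRNA genes left out, AC121973.1 could not be tested and the smallest adjusted p of a lncRNA gene was 0.419 in limma. Over the alternatives in which AC121973.1 was tested, its log2 difference ranged from 1.73 to 3.58 and its adjusted p in limma from 0.0216 to 0.891.

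The named lncRNAs of known function were read from 8 lists. Of the nuclear body RNAs, Neat1, the scaffold of paraspeckles, had 25.6 and 17.1 scaled FPKM in wild type, against 34.3 and 35.9 in knockout. Both knockout libraries were above both wild type libraries, and the log2 difference was 0.72 (SE 0.25, unadjusted p 0.0352, adjusted p 0.453 in limma). In each library the value came mainly from 1 locus of 3147 to 3260 bases at the 5′ end of the gene (chr19:5824708-5845478, minus strand), the stretch of the short isoform, and the other loci of 300 bases or more had a deposited 0.344 to 1.37 FPKM. Malat1, a component of nuclear speckles, had 17.9 and 9.02 in wild type, against 15.1 and 17.9 in knockout, and the groups overlapped. The median log2 difference of the pair was 0.53.

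The hosts of snoRNAs, a class that includes guides for modification of ribosomal RNA, gave 7 tested genes of 20 listed. Of these hosts, 4 were above, 0 below and 3 overlapping, with a median log2 difference of 0.43. The share of all genes tested with knockout above was 21.9%. None passed an adjusted p of 0.05 in limma, and unadjusted p was under 0.05 for Snhg17 alone. Snhg17 had 1.35 and 1.21 scaled FPKM in wild type, against 2.06 and 3.04 in knockout, a log2 difference of 0.63 (SE 0.24, adjusted p 0.458 in limma). Snhg12 had 7.85 and 5.83 in wild type, against 9.64 and 10.5 in knockout. Snhg5 had 2.87 and 2.73 against 3.46 and 4.93, and Snhg20 had 2.52 and 3.40 against 4.43 and 3.53. For these 4 genes the highest wild type value was close to the lowest knockout value in Snhg20 and Snhg5. The Snhg20 value in knockout 1 came from 14.7% of the transcript, against 85.6% to 99.6% in the other libraries.

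The other hosts overlapped between genotypes or lacked a value in at least 1 library. Zfas1 had 12.2 and 38 scaled FPKM in wild type, against 13.4 and 2.30 in knockout, and the groups overlapped. Gas5, which carries 10 snoRNAs in its introns, had 107.5 and 134.4 in wild type, against 48.1 in knockout 2. In knockout 1 its loci had deposited FPKM of 249 and 4571, far above their own bounds, and gave no usable value. Snhg8 had 1.77 and 1.90 in wild type, against 12.2 in knockout 2, with short loci only in knockout 1. Epb41l4aos had no locus in either wild type library and 12.5 and 15.2 in knockout. Snhg1 had 6.34 and 4.05 in wild type, against 10.2 and 5.54 in knockout, and Snhg14 had 2.10 and 1.34 against 1.73 and 0.369. Snhg15 and Snhg18 each lacked a value in 1 library.

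**Figure D4:**
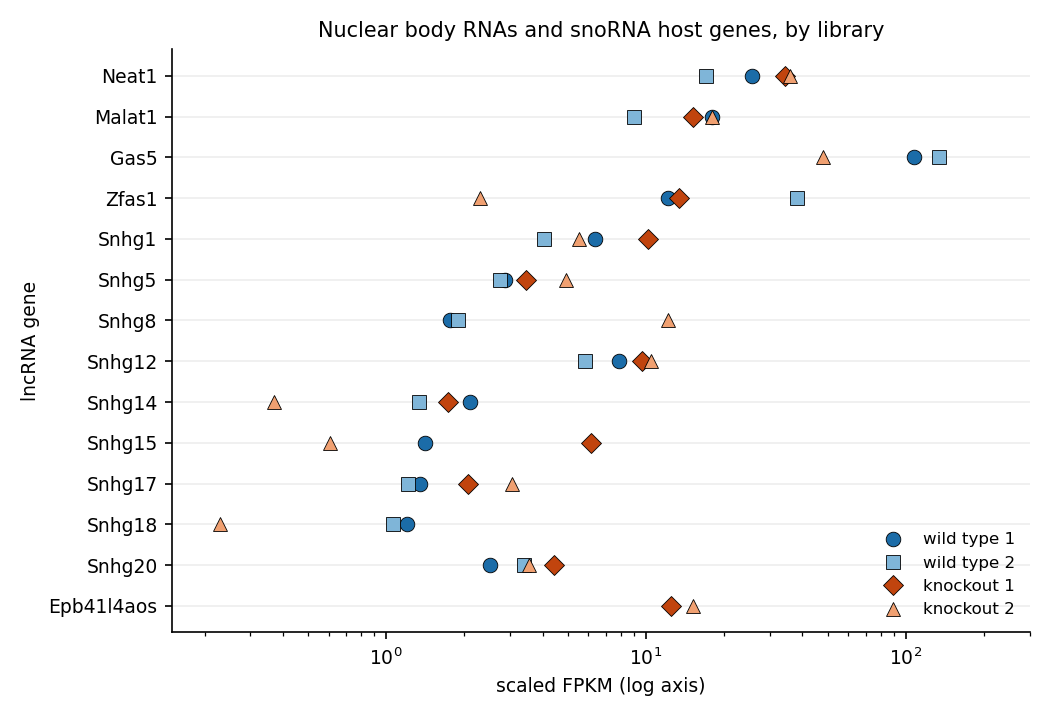
Scaled FPKM (log axis) in each library for Neat1, Malat1 and 12 snoRNA host genes, with a missing point where a library gave no usable value. Neat1 and Snhg17 have both knockout points to the right of both wild type points, and Zfas1 and Gas5 have their lowest value in knockout 2.

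Of 9 imprinted lncRNAs listed, 6 were members and 1 had the values to be tested. This was Peg13, at 1.61 and 2.11 scaled FPKM in wild type, against 1.67 and 2.69 in knockout, with overlap and a log2 difference of 0.14. H19 had 0.891 in wild type 1 and 0.319 in knockout 2, Airn 0.980 and 0.301, and Kcnq1ot1 1.54 and 0.284 in the same 2 libraries, with no usable value in the others.

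The maternally expressed transcripts Meg3 and Rian on chromosome 12 had another pattern. Meg3 had no locus in either wild type library and 1.71 and 3.00 scaled FPKM in knockout. Rian had no locus in either wild type library and 4.30 and 3.42 in knockout. Over the 208 kb from the start of Meg3 to the end of Mirg, a further noncoding gene of the cluster, wild type 1 and 2 had 0 loci of any length, against 16 and 9 in knockout 1 and 2. In knockout 2 a single locus of 30418 bases covered almost all of Meg3, at a deposited 3.30 FPKM with bounds of 2.83 and 3.43. Summed stellate cell markers were also higher in both knockout libraries, as given above, and their part in this was not tested. With 2 libraries a genotype and no value in wild type, there is no test of this difference.

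**Figure D5:**
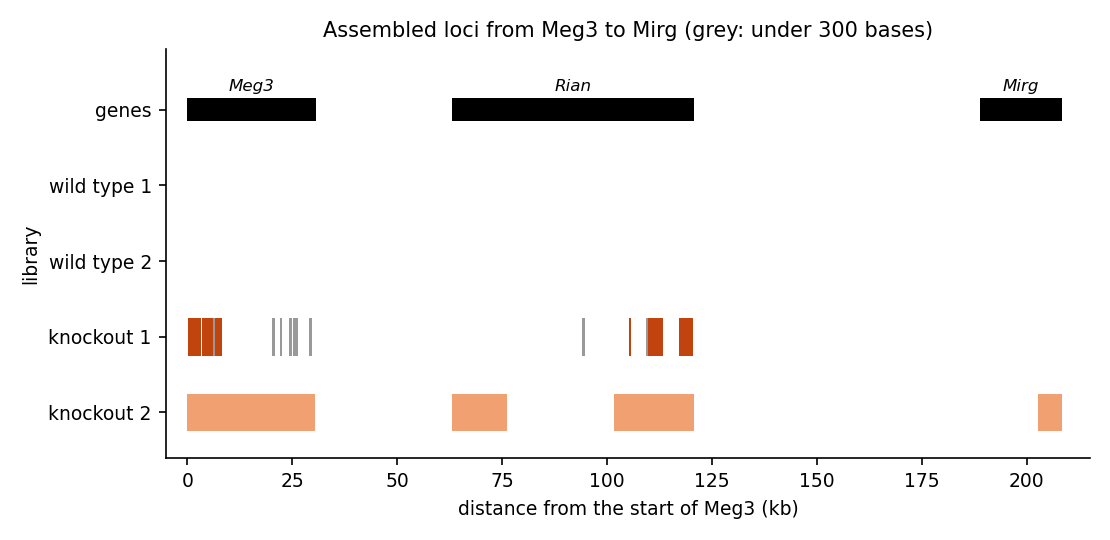
Assembled loci in each library against distance in kb from the start of Meg3, with loci under 300 bases in grey and the 3 genes drawn in black. The wild type rows are empty, with 0 loci each, and the knockout rows hold 16 and 9 loci over Meg3, Rian and, in knockout 2, Mirg.

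Among lncRNAs in wide use, Norad (listed as 2900097C17Rik), a cytoplasmic RNA that binds Pumilio proteins, had 22.7 and 21.7 scaled FPKM in wild type, 10.4 in knockout 1 and no locus in knockout 2. In knockout 1, however, 2 loci with the same coordinates had 10.4 scaled FPKM each, or 20.8 together, close to wild type. Tug1 had 8.01 and 6.10 in wild type, against 6.96 and 6.85 in knockout. Dancr had 1.35 and 1.92 against 1.97 and 2.16, 1700020I14Rik, known as Cyrano, 14.3 and 10.2 against 12.5 and 13.5, and Firre 2.87 and 3.48 against 2.67 and 4.93. Of the 4 tested genes of this list, 1 was above without overlap (Dancr, log2 difference 0.22, SE 0.22) and 3 overlapped, with a median of 0.13. Pvt1, Lncpint, Fendrr and Bvht lacked a value in at least 1 library. Of the X inactivation genes, Jpx was tested and overlapped (1.47 and 3.79 against 2.65 and 0.790, log2 difference -0.43), and Ftx fell under the filter, while Xist and Tsix were not members. Dleu2 was the tested microRNA host, at 7.10 and 8.07 against 7.56 and 6.17, with a log2 difference of -0.13 (SE 0.20) and overlap.

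Liver-enriched RIKEN transcripts gave 4 tested genes of 6, of which 9030616G12Rik was below and 3 overlapped. Their median log2 difference was -0.19. The other 3 were 1810059H22Rik (1.76 and 8.00 in wild type, 3.78 and 1.98 in knockout, in scaled FPKM), 4833411C07Rik (1.98 and 2.64 against 2.31 and 2.68) and C730036E19Rik (1.86 and 1.69 against 4.0 and 0.614). 0610005C13Rik showed how the coding-exon limit can hide a gene. Its member pieces had 11.4 and 10.1 scaled FPKM in knockout and none in wild type. Yet all 4 libraries had a larger locus over it that touched a coding exon, at deposited FPKM of 50.1 and 52.3 in wild type, against 81.7 and 95.7 in knockout. These knockout values were above their own upper bounds of 66.4 and 75.5, and the wild type values were within theirs. The locus was 3257 bases long in knockout 1, against 7328 to 7375 in the other libraries. None of the 7 listed genes antisense or divergent to hepatocyte transcription factors could be tested.

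Most of the 10 most abundant lncRNA genes, by the geometric mean of those with a value in all 4 libraries, overlapped between genotypes. Gm47162 had 443 and 516 scaled FPKM in wild type, against 358 and 635 in knockout, over a pseudogene, so that reads of its parent gene may be counted there. Gm26880 had 244 and 325 against 286 and 225, and Gm26809 had 209 and 166 against 171 and 236. AW112010 varied within wild type, from 40.8 to 96.3, more than between genotypes, at 59.4 and 43.2 in knockout. Of the 10 most abundant, 7 overlapped, Neat1 and 1810058I24Rik were above and Gm26905 was below (31.9 and 22.4 against 17 and 19, log2 difference -0.55, SE 0.24, adjusted p 0.490 in limma). The 7 include Cct6a (68.2 and 71.2 against 73.6 and 53.5) and Tmem250-ps, both of which RefSeq calls protein-coding.

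A value in both libraries of 1 genotype and in neither of the other was found for 59 members in knockout, or 8.61% of the 685 with a value in at least 2 libraries, against 1.93% of 12553 lncRNA and coding genes together. The reverse held for 42 in wild type, or 6.13%, against 1.37%. Both shares were above those of the background, most of which is coding genes. The most frequent pair of libraries, however, crossed the genotypes: 102 members had a value in wild type 1 and knockout 2 alone, or 14.9%, against 2.99% of the background. Wild type 2 and knockout 2 alone held 29 (4.23%, against 0.844%), wild type 1 and knockout 1 alone 17 (2.48%, against 0.605%), and wild type 2 and knockout 1 alone 16 (2.34%, against 0.47%). The median level was 1.94 scaled FPKM for lncRNA genes and 7.10 for coding genes. Of the 59 genes seen in knockout alone, 32 had no locus of any kind in wild type, and 12 had exons within a wild type locus that also covered a coding exon. Of the 42 seen in wild type alone, 20 had no knockout locus and 17 had exons in such a merged locus.

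The largest knockout-only value shows the second case. AC117816.1, a lincRNA gene 1089 bases past the 3′ end of A1cf on the same strand, had 57.8 and 41.7 scaled FPKM in knockout. In both wild type libraries it was part of a locus of 83599 and 83619 bases that runs through A1cf, the gene of a cofactor of apolipoprotein B mRNA editing, at deposited FPKM of 45.3 and 38.1. A1cf had 48.5 and 41.7 in wild type, against 31.3 and 18.5 in knockout, with an adjusted p of 0.453 in limma. AC117816.1 was thus covered in all 4 libraries, as a locus of its own in knockout and within that of A1cf in wild type. In wild type alone, BC049987, which starts 995 bases from Treh on the other strand, had 5.39 and 8.98 with no locus in knockout, CT025731.4 had 2.87 and 1.44, and Gm31121 had 1.66 and 2.56, likewise with no knockout locus.

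Differences of lncRNA genes were set beside those of the nearest coding gene in 145 pairs in which both were tested. For 31 pairs that lie head to head within 5 kb, Pearson's r between the log2 differences was 0.51 and Spearman's rho 0.52, and 22 had the same sign. For 10 pairs with the lncRNA gene within 5 kb past the 3′ end on the same strand, r was -0.21 and rho 0.0061, and for all 52 pairs within 5 kb r was 0.21 and rho 0.25. For 35 lncRNA genes that overlap the body of the coding gene, r was 0.10 and rho 0.07, with 17 of the same sign. For 58 pairs farther than 5 kb apart, r was 0.12 and rho 0.23. These are correlations across genes, which are not independent replicates, and all pairs share the same 4 libraries. Picked from the head-to-head pairs after the values were seen, Gm36172 and Arg1, the gene of liver arginase, 135 bases apart, had log2 differences of -0.67 and -0.49. Neither gene passed an adjusted p of 0.05 in limma.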

How the data were processed

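Liver RNA of 4 mouse libraries (TruSeq RNA kit, HiSeq 2000) was analysed. Per the submitters' processing notes the authors used FastQC, TopHat and Cufflinks, with the build mm9. The authors deposited, for each library, assembled loci with FPKM and its bounds, without gene names, strand or read counts. The coordinates fit GRCm38: of loci over 2000 bases, 14.2% to 34.3% had an end within 20 bases of a gene end, against 0.439% to 0.693% after a shift of 100 kb.

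Loci were matched to GENCODE M21 exons, and each went to the lncRNA gene with the most exonic bases. Dropped were loci (42 of 3110) whose FPKM exceeded the centre of their own bounds more than 3-fold. The value of a gene is the mean over its loci, weighted by exonic bases, and libraries were scaled by the median of ratios (factors 0.915 to 1.20). Testing used limma 3.58.1 with a trend in R 4.3.3, on log2(scaled FPKM + 1), for genes with a value in all 4 libraries and at least 1 scaled FPKM in at least 2, with Benjamini-Hochberg adjustment over 8149 genes; 2 residual and 2.83 prior degrees of freedom were available. Tables and figures were made with Python 3.11.15, pandas 2.3.3, scipy 1.17.1 and matplotlib 3.10.9. The procedure was tested on simulated data. Named are genes without overlap and at least 2-fold, the 10 most abundant, the largest seen in 1 genotype alone and listed genes; others are marked as picked after their values were seen. The members and lists were chosen with earlier results of these data known. Alternatives, 23 in all, changed scaling, filter, pseudocount, choice of loci or libraries. Genes seen in 1 library, and loci under 300 bases, were not compared. Some results are not reported here.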

Additional observations from a re-analysis of the deposited data

How the results depend on the processing

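Of 37 named genes tested, the 17 without overlap kept their direction in all alternatives, while 17 of the 20 with overlap had both signs. The kept directions are in part fixed by the grouping. Where groups do not overlap, leaving out 1 library or changing the pseudocount, the filter or the fit cannot turn the sign. Only a change of scaling or of the choice of loci could have done so. The counts of genes past an adjusted p of 0.05 in limma, 0 higher and 0 lower, became 1 higher with FPKM as deposited (a scale that moves the median of all genes to 0.19), where 2 of all genes passed, and 4 higher with absent genes set to 0, where 32 of all genes passed. Leaving out 1 library gave 0 to 7 higher and 0 to 4 lower. All genes past the threshold then numbered 463 without knockout 1, 17 without knockout 2, 2 without wild type 1 and 2 without wild type 2. The counts of 2-fold genes without overlap, 5 higher and 5 lower, became 11 and 15 with a pseudocount of 0.1, 8 and 3 with FPKM as deposited, 11 and 10 with loci summed, and 18 and 50 with absent genes set to 0. The lower count became 9 with a pseudocount of 0.5, 8 with quantile normalization and 9 with all loci whatever their bounds. The higher count became 2 with a filter at 5 scaled FPKM, 2 with loci spanning at least 50% of a transcript, and 1 with loci over more than 1 lncRNA gene left out. Leaving out 1 library gave 7 to 22 higher and 3 to 18 lower. The median log2 difference, 0.09, ran from -0.31 without knockout 1 to 0.33 without knockout 2, and lay just below 0 with a filter at 5 scaled FPKM, quantile normalization or absent genes set to 0. The lone library left in a group was assumed to vary as the other group does. The last alternative on loci over several lncRNA genes, and one that allowed exons of noncoding transcripts of coding genes, were chosen after seeing the data. With the replicate number as a block, 0 genes were higher and 0 lower, with a smallest adjusted p of 0.295 in limma. The labels give the numbers no pairing, and deviations of same-numbered libraries had a correlation of 0.0671. The files hold no read depth, so a gene without a locus has no upper limit.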
